A study of Mus musculus with 9 samples.

Results

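The genes described here make, store and remove GABA in the substantia nigra or mark its GABA neurons: the enzymes that make GABA (Gad1 and Gad2), the carrier that loads it into vesicles (Slc32a1), a transporter that takes it back up (Slc6a11), the enzyme that breaks it down (Abat) and parvalbumin (Pvalb), a calcium-binding protein of fast-firing neurons. They were chosen by name, taking every probe set that the array's annotation gives to one of these 6 genes and no other. This gave 8 probe sets for 5 of the 6 genes, of 45037 probe sets tested and 17097 genes that have one of their own. A probe set is a group of short probes that together read out 1 transcript. Gad1 (1416561_PM_at, and the dimmer 1416562_PM_at), Slc32a1 (1422756_PM_at and 1456457_PM_at) and Abat (1433855_PM_at and 1422226_PM_at) had 2 probe sets each, and Gad2 (1421978_PM_at) and Pvalb (1417653_PM_at) had 1 each. Slc6a11 had none named for it and was not analysed here.

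RNA of the substantia nigra of Swiss Webster mice was hybridized to 9 arrays, 3 in each of 3 groups that received saline, 1 mg/kg methylphenidate (MPH, a stimulant that blocks dopamine and noradrenaline reuptake) or 10 mg/kg MPH. Per the study's methods the injections started soon after weaning, followed a school-day schedule for 3 months and were followed by a drug-free week, so the tissue was taken without drug on board. The labels do not say whether an array holds RNA of 1 mouse or of several, and p-values measure only the spread between these arrays. Groups carry the doses of the deposited labels, whereas the lists of changed genes that accompany the paper match the arrays of the opposite dose, so which MPH group had which dose is not settled and the comparison of both MPH groups with saline does not depend on it.

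GABA is made from glutamate by the glutamate decarboxylases GAD67 (Gad1) and GAD65 (Gad2), packed into vesicles by the transporter VGAT (Slc32a1), and removed after reuptake by GABA transaminase (Abat), a mitochondrial enzyme of neurons and glia. In the substantia nigra most GABA neurons lie in the pars reticulata, fire fast without pause, often contain parvalbumin, send the output of the basal ganglia to the thalamus and brainstem, and inhibit the neighbouring dopamine neurons.

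Values are log2 intensities, on which 1 unit is a doubling. Array medians were 4.49 to 4.53, and 22 of 23 control probe sets that match no transcript averaged 3.59 or less, with the highest at 5.07. Markers of the labelled tissue were bright, with the dopamine genes Th and Slc6a3 at 11.10 and 12.02 in saline arrays. The array of MPH 10 mg/kg replicate 1 stood apart from the other 8. Its mean over 9 marker genes of cortex and hippocampus lay 0.91 above the saline mean, against -0.19 to 0.13 in the others, and the cortical genes Icam5 and Itpka read 7.19 and 6.03 there, against 4.64 to 5.74 and 3.85 to 4.70 elsewhere. Its 9 oligodendrocyte genes averaged 0.55 below saline, against -0.30 to 0.20 in the other arrays. Its part in the results was not tested, and several results of the members are given with and without it.

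The machinery of GABA neurons was abundant in all 9 arrays. The brightest probe sets of Gad1, Abat, Pvalb and Slc32a1 stood at percentiles 99.5, 98.9, 96.3 and 95.7 of all probe sets by mean value, and Gad2 at percentile 70.6. The second probe sets of Slc32a1 (3.32 to 3.57) and Abat (3.27 to 3.51) lay within the range of the controls that match no transcript, and no change is read from them. None of the 8 probe sets passed limma's test at an adjusted p of 0.05 in any comparison. The same test passed 0% of all 45037 probe sets in the comparison of MPH 1 mg/kg, of MPH 10 mg/kg and of both MPH groups with saline. It also passed 0% between the 2 doses. In this fit, which has the replicate number as a block, the members' count is thus the count of the whole array. Without that block, 0.12%, 0.255% and 0.46% of all probe sets passed in the 3 comparisons with saline and 0% between the doses. Still 0 of the 8 members passed. The first 2 of these shares are 54 and 115 probe sets, the numbers the paper lists for 10 and 1 mg/kg. The block may correct values that were already corrected for batch, so the 0% holds for that fit only. Before adjustment, 1 of the 8 members (Gad2) had p at or below 0.05 in MPH 1 mg/kg against saline and 0 did in the other comparisons, where 10.3% of all probe sets did for MPH 1 mg/kg, 9.59% for MPH 10 mg/kg, 11.2% for both MPH groups and 6.39% between the doses.

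**Figure D1:**
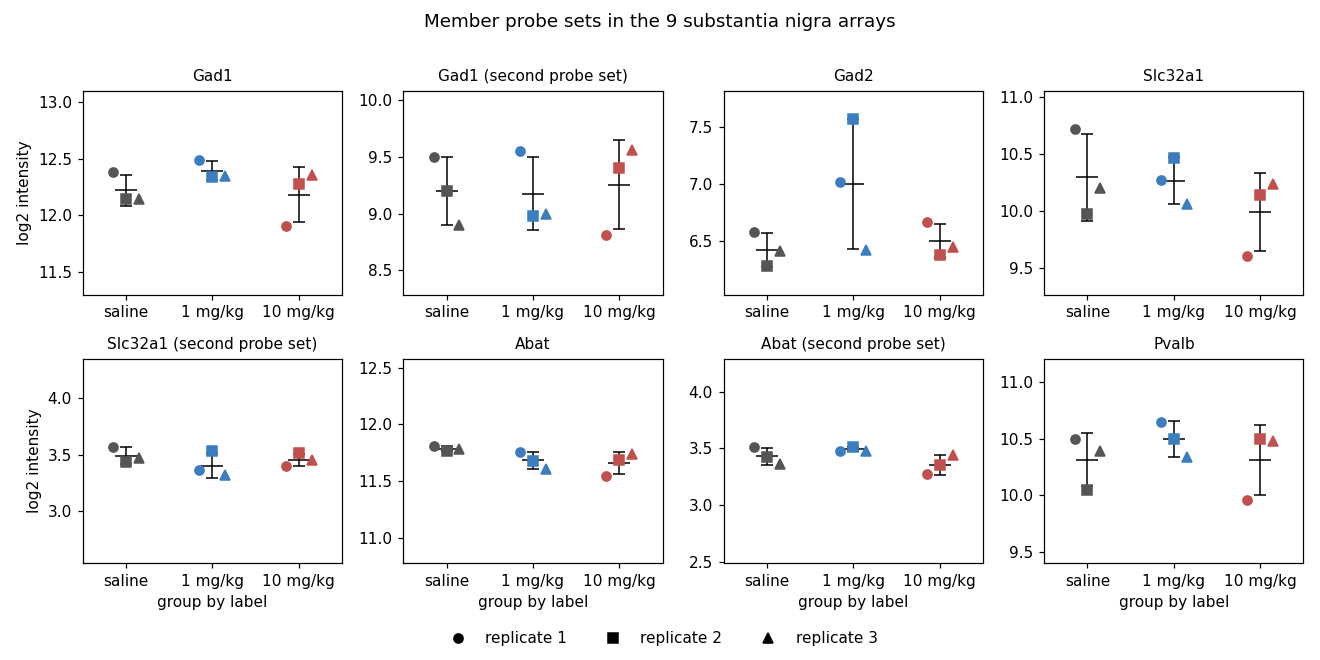
Log2 intensity of the 8 probe sets in the 9 arrays, with saline, 1 mg/kg and 10 mg/kg from left to right, symbols for replicate numbers, and bars for mean and SD (n = 3). All panels span 1.8 log2 units, and in 5 of the 6 probe sets brighter than every control that matches no transcript the lowest point is replicate 1 of MPH 10 mg/kg.

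Gad1, which makes most of the basal GABA of a neuron, was the brightest of these genes. Its values were 12.38, 12.14 and 12.14 in saline arrays, 12.49, 12.34 and 12.35 in MPH 1 mg/kg arrays, and 11.91, 12.28 and 12.36 in MPH 10 mg/kg arrays. The 3 groups overlapped, and the lowest value was that of MPH 10 mg/kg replicate 1. Both MPH groups together averaged 12.29 ± 0.20 (SD, n = 6), against 12.22 ± 0.14 in saline (SD, n = 3). The difference was 0.07 (SE 0.12; 95% interval -0.21 to 0.35, a fold of 0.865 to 1.27; limma adjusted p = 0.859). By group it was 0.17 (SE 0.14) for MPH 1 mg/kg and -0.04 (SE 0.14) for MPH 10 mg/kg, with adjusted p of 0.688 and 0.947 in limma. Without replicate 1 the MPH 10 mg/kg difference was 0.17, of the other sign. The second Gad1 probe set, dimmer at 8.81 to 9.56, differed by 0.02 between both MPH groups and saline (95% interval -0.49 to 0.52), and its values correlated with the first at r = 0.70 over the 9 arrays (0.57 without MPH 10 mg/kg replicate 1). RefSeq also lists a Gad1 pseudogene, and how far its transcripts reach these probes is not known.

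Gad2 makes GAD65, the form bound to synaptic vesicles. It was the only member past an unadjusted p of 0.05 against saline. Its values were 6.58, 6.28 and 6.41 in saline arrays, 7.02, 7.57 and 6.42 in MPH 1 mg/kg arrays, and 6.67, 6.38 and 6.45 in MPH 10 mg/kg arrays. Only replicates 1 and 2 of MPH 1 mg/kg lay above the highest of the other arrays. In MPH 1 mg/kg it averaged 7.01 ± 0.58, against 6.42 ± 0.15 in saline (SD, n = 3 each). The difference was 0.58 or a fold of 1.5 (SE 0.23, 95% interval 0.05 to 1.12), with a limma p of 0.0367 and an adjusted p of 0.462. The exact permutation test gave 0.2, where 0.1 is the smallest p that 3 arrays against 3 allow. The difference depended on single arrays, at 0.23 without replicate 2 of MPH 1 mg/kg and 0.86 without replicate 3. In MPH 10 mg/kg the difference from saline was 0.08 (SE 0.23, limma adjusted p = 0.931), and the difference of 10 mg/kg from 1 mg/kg was -0.50 (95% interval -1.04 to 0.03, limma adjusted p = 0.781), so the doses are not shown to differ. Within arrays, Gad2 minus Gad1 differed by 0.26 between both MPH groups and saline (exact permutation p = 0.476).

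Slc32a1, the vesicular carrier that all GABA and glycine neurons use, read 10.72, 9.97 and 10.20 in saline arrays, 10.27, 10.47 and 10.06 in MPH 1 mg/kg arrays, and 9.60, 10.14 and 10.24 in MPH 10 mg/kg arrays. The groups overlapped, with the highest value in saline replicate 1 and the lowest in MPH 10 mg/kg replicate 1. The difference from saline was -0.03 for MPH 1 mg/kg (95% interval -0.60 to 0.54) and -0.30 for MPH 10 mg/kg (95% interval -0.87 to 0.26), with adjusted p of 0.977 and 0.699 in limma. Without MPH 10 mg/kg replicate 1 the difference of that group was 1e-04. The spread of the saline arrays alone, an SD of 0.39, was larger than either difference.

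Pvalb, the calcium buffer of the fast-firing neurons, read 10.50, 10.05 and 10.39 in saline arrays, 10.65, 10.50 and 10.34 in MPH 1 mg/kg arrays, and 9.96, 10.50 and 10.48 in MPH 10 mg/kg arrays. One low array in saline and one in MPH 10 mg/kg set the width of those groups. MPH 1 mg/kg averaged 10.49 ± 0.15 and MPH 10 mg/kg 10.31 ± 0.30, against 10.31 ± 0.24 in saline (SD, n = 3 each). Both MPH groups together differed from saline by 0.09 (SE 0.16; 95% interval -0.28 to 0.46, a fold of 0.822 to 1.38; limma adjusted p = 0.862). Without replicate 1 of MPH 10 mg/kg, the difference of that group from saline was 0.26 (limma adjusted p = 0.649), against 0.00 with it.

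Abat, the transaminase that starts the breakdown of GABA, was the only member with all arrays of both MPH groups outside the range of saline. It read 11.81, 11.77 and 11.78 in saline arrays, 11.76, 11.68 and 11.61 in MPH 1 mg/kg arrays, and 11.55, 11.69 and 11.74 in MPH 10 mg/kg arrays. All 6 MPH arrays lay below all 3 saline arrays, with 11.76 and 11.77 as the nearest pair. Both MPH groups averaged 11.67 ± 0.08 (SD, n = 6), against 11.79 ± 0.02 in saline (SD, n = 3), a difference of -0.12 or a fold of 0.922 (SE 0.07; 95% interval -0.28 to 0.05; limma adjusted p = 0.573, 0.289 without the block). The exact permutation test gave 0.0238, the smallest p that 6 arrays against 3 allow. Without MPH 10 mg/kg replicate 1 the difference was -0.08. Arrays of MPH lay wholly below saline in 1 of 8 member probe sets and wholly above in 0, in each of the 3 comparisons with saline, and each time the probe set was the brightest one of Abat. Of all probe sets, 23.1% did not overlap in MPH 1 mg/kg against saline, 23.4% in MPH 10 mg/kg against saline and 9.95% in both MPH groups against saline, so 1 in 8 is below the background in each single dose and close to it in both groups together. Between the doses 1 of 8 did not overlap, the dim second probe set of Abat, against 18.2% of all probe sets.

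Other measures separated the same arrays as Abat. The 12 dopamine neuron genes averaged -0.60 to -0.42 relative to the saline mean in the 6 MPH arrays, against -0.12 to 0.15 in the saline arrays. The signal of the beta-actin control probe sets at the transcript's 3′ end exceeded that at the 5′ end by 1.03 to 1.19 in MPH arrays, against 0.88 to 0.93 in saline arrays, a measure that widens as RNA degrades, while that of the Gapdh controls overlapped (0.22 to 0.41 against 0.23 to 0.39). Across the 9 arrays Abat varied with the means of several lists, at r = 0.87 with oligodendrocytes (0.74 without MPH 10 mg/kg replicate 1), 0.86 with inhibitory synapses (0.92), 0.79 with microglia (0.55) and -0.78 with cortex and hippocampus (-0.50). Their part in the Abat difference was not tested. In RNA of whole tissue, fewer cells of a type and less RNA per cell cannot be told apart.

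**Figure D2:**
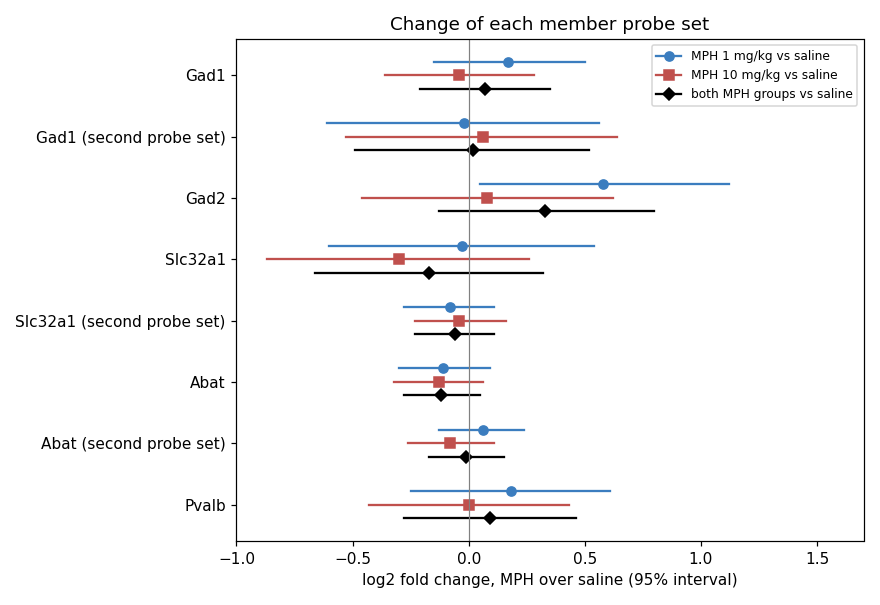
Log2 fold change of each member probe set, MPH over saline, with its 95% interval from limma, for MPH 1 mg/kg, MPH 10 mg/kg and both groups together. The intervals include 0 except that of Gad2 in MPH 1 mg/kg (0.05 to 1.12).

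The width of these intervals sets what the arrays can say. For both MPH groups against saline, the interval ran over a fold of 0.865 to 1.27 for Gad1, 0.822 to 1.38 for Pvalb and 0.821 to 1.04 for Abat. It was wider for the other genes, at 0.635 to 1.25 for Slc32a1 and 0.912 to 1.74 for Gad2. Over the 5 genes the median difference of both MPH groups from saline was 0.07, with -0.02 over 17097 genes with 1 probe set each.

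The next enzyme of GABA breakdown was lower in the same arrays as Abat. Aldh5a1, the succinate semialdehyde dehydrogenase that takes the product of Abat into the citric acid cycle, read 9.80, 9.82 and 9.75 in saline arrays, 9.58, 9.47 and 9.55 in MPH 1 mg/kg arrays, and 9.54, 9.52 and 9.67 in MPH 10 mg/kg arrays. All 6 MPH arrays lay below all 3 saline arrays. The difference of both MPH groups from saline was -0.23 or a fold of 0.851 (SE 0.07; 95% interval -0.39 to -0.08; limma adjusted p = 0.337, 0.0739 without the block), which did not pass the test. Aldh9a1, an aldehyde dehydrogenase that can make GABA from a putrescine product and was singled out after its values were seen, read 8.38, 8.11 and 8.20 in MPH 1 mg/kg arrays and 8.27, 8.20 and 8.35 in MPH 10 mg/kg arrays, against 8.54, 8.70 and 8.42 in saline arrays (difference -0.30, SE 0.09, limma adjusted p = 0.345). These were the 2 of 11 measured genes of a wider list of GABA transport and metabolism whose MPH arrays all lay below saline, against 9.95% of all probe sets in either direction. None of the 11 passed the test in any comparison, and their median difference was -0.01 for both MPH groups against saline. The glutamine carrier Slc38a1, which supplies neurons with a precursor of GABA, read 11.48 to 11.59 in all 9 arrays and differed from saline by 0.01 in MPH 1 mg/kg and -0.02 in MPH 10 mg/kg. Slc6a13, a GABA transporter mainly of the meninges, read 5.25, 6.11 and 6.13 in saline arrays, 5.73, 6.65 and 6.27 in MPH 1 mg/kg arrays, and 8.14, 6.48 and 6.14 in MPH 10 mg/kg arrays. Its difference of 1.09 in MPH 10 mg/kg (SE 0.53, limma adjusted p = 0.553) stood mostly on replicate 1, the array with high cortical genes.

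On the receiving side, 8 of 11 listed genes of inhibitory synapses and chloride balance were measured, and 0 passed the test in any comparison. Their median difference was -0.07 for both MPH groups against saline, with 2 of the 8 lying wholly below saline in the 6 MPH arrays, against 9.95% of all probe sets that did not overlap in either direction. One of these, the GABA-B receptor subunit Gabbr1, read 11.52, 11.45 and 11.54 in MPH 1 mg/kg arrays and 11.46, 11.45 and 11.50 in MPH 10 mg/kg arrays, against 11.70, 11.68 and 11.61 in saline arrays. Its difference was -0.18 (SE 0.06; 95% interval -0.32 to -0.04; limma adjusted p = 0.383). The other was Iqsec3, an exchange factor of inhibitory synapses, with -0.27 (SE 0.09, limma adjusted p = 0.389). Both were singled out after their values were seen. Slc12a5, the chloride exporter that makes GABA inhibitory, read 12.35 to 12.46 in all 9 arrays and differed by 0.01 (95% interval -0.13 to 0.15).

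The identity genes of ventral midbrain GABA neurons did not pass the test either. Of 13 measured transcription factors of these neurons 0 passed, and the median difference was 0.18 for MPH 1 mg/kg and 0.07 for MPH 10 mg/kg against saline. Among them, Tal1 read 6.97, 6.60 and 6.88 in saline arrays, 7.05, 6.94 and 6.99 in MPH 1 mg/kg arrays, and 6.37, 6.95 and 6.74 in MPH 10 mg/kg arrays. The lowest of the 9 was again MPH 10 mg/kg replicate 1. Gata3, its partner, read 6.23 to 6.42 in saline arrays, 6.39 to 6.67 in MPH 1 mg/kg arrays and 6.38 to 6.43 in MPH 10 mg/kg arrays. Six3, a homeobox factor of part of these neurons, had the highest difference of the list in MPH 1 mg/kg, 0.66 (SE 0.32; 95% interval -0.08 to 1.40; limma adjusted p = 0.521), with arrays at 7.78, 7.92 and 7.68 against 7.63, 6.58 and 7.19 in saline. In MPH 10 mg/kg its difference was 0.08, and the groups overlapped.

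The channels and surrounding nets of fast-firing neurons, 14 of 17 listed genes, had 0 members past the test and a median difference of 0.02 for both MPH groups against saline. Kcnc1, the potassium channel that lets these neurons fire fast, read 11.30, 10.79 and 11.12 in saline arrays, 11.37, 11.30 and 11.15 in MPH 1 mg/kg arrays, and 10.77, 11.22 and 11.15 in MPH 10 mg/kg arrays. Its 2 lowest arrays, saline replicate 2 and MPH 10 mg/kg replicate 1, were also the lowest for Pvalb. Kcna1 differed from saline by 0.17 in MPH 1 mg/kg and 0.13 in MPH 10 mg/kg, Syt2, a synaptotagmin of fast synapses, by -0.17 and -0.35, and Hapln4, a link protein of perineuronal nets, by 0.00 and -0.10, none of them past the test.

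Of 12 measured calcium-binding proteins and peptides listed for GABA neurons, 0 passed the test. The list is not specific to GABA neurons, and which cells gave its signal was not tested. In MPH 1 mg/kg 8 of 12 had a difference below 0 and in MPH 10 mg/kg 6 of 12, where 9617 and 9574 of 17097 genes did. Calb2 (calretinin) read 9.71, 10.54 and 9.70 in saline arrays, 9.37, 8.74 and 9.52 in MPH 1 mg/kg arrays, and 9.94, 9.45 and 9.55 in MPH 10 mg/kg arrays. The difference was -0.77 in MPH 1 mg/kg (SE 0.30, limma adjusted p = 0.454), with all 3 arrays below saline, and -0.33 in MPH 10 mg/kg, where the groups overlapped. Somatostatin (Sst), a peptide of other GABA neurons, differed by -0.43 and -0.29, and Calb1 (calbindin) by 0.12 and 0.21. Calb2 and Sst were both highest in saline replicate 2, the array that had the lowest Kcnc1 of its group.

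Several members varied together across the arrays. Gad1 and Pvalb correlated at r = 0.88 over the 9 arrays, Slc32a1 and Pvalb at 0.78, and Gad1 and Slc32a1 at 0.74. Without MPH 10 mg/kg replicate 1 these were 0.76, 0.58 and 0.45 over 8 arrays. For the second Gad1 probe set r was lower, at 0.61 with Pvalb and 0.52 with Slc32a1 (0.43 and 0.27 without that array). These are descriptions of arrays that share a dissection, a treatment group and a quantile normalization. MPH 10 mg/kg replicate 1 was the lowest of the 9 for 5 of the 6 probe sets brighter than every control that matches no transcript. Saline replicate 1 was the highest for the brightest probe sets of Slc32a1 and Abat. How often these arrays were lowest or highest over all probe sets was not counted. Gad2 correlated with Gad1 at r = 0.29 (0.48 without MPH 10 mg/kg replicate 1). Abat correlated with Gad1 at r = 0.45, which was -0.18 without that array.

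Genes of neighbouring regions varied with Pvalb and the brightest probe set of Gad1. The mean of 6 thalamic genes, relative to saline, was 0.55, -0.86 and 0.32 in saline arrays, 0.89, 1.02 and 0.61 in MPH 1 mg/kg arrays, and -0.56, 0.63 and 0.08 in MPH 10 mg/kg arrays. Among them the thalamic factor Tcf7l2 ranged between 8.39 in saline replicate 2 and 10.48 in MPH 1 mg/kg replicate 1. All 3 arrays of MPH 1 mg/kg lay above all saline arrays in this mean, and saline replicate 2 and MPH 10 mg/kg replicate 1 were lowest. Pvalb followed the thalamic mean at r = 0.88 (0.85 without MPH 10 mg/kg replicate 1) and the brightest Gad1 probe set at r = 0.75 (0.66). The second Gad1 probe set did so only weakly, at r = 0.25 (-0.01). Pvalb followed the mean of the 13 GABA neuron transcription factors at r = 0.88 (0.82) and that of the 14 fast-firing neuron genes at r = 0.88 (0.84). The mean of the 12 calcium-binding proteins and peptides ran the opposite way, at r = -0.94 (-0.89) with Pvalb and -0.96 (-0.92) with Gad1. So did the list of GABA transport and metabolism, at -0.88 (-0.80) with Pvalb, -0.92 (-0.80) with Gad1 and -0.91 (-0.86) with Slc32a1. For cortex and hippocampus r was -0.80 (-0.62), -0.87 (-0.66) and -0.84 (-0.74) with the same 3 genes. The 3 measured serotonin neuron genes of the raphe averaged -1.30, 0.95 and 0.35 in saline arrays, -1.65, -2.12 and -1.81 in MPH 1 mg/kg arrays, and -0.66, -1.79 and -1.90 in MPH 10 mg/kg arrays. The saline arrays thus differed among themselves as well. No thalamic, cortical or raphe gene passed the test. The part of tissue from these regions in the values of Gad1, Slc32a1 and Pvalb was not tested.

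**Figure D3:**
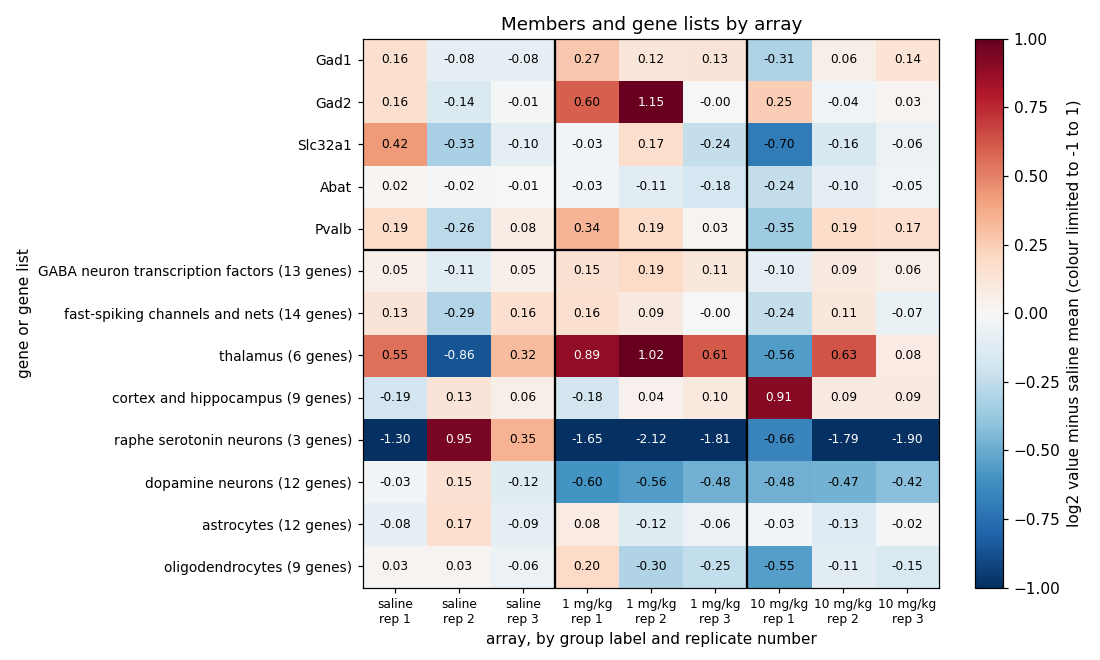
Log2 values of the 5 measured genes (brightest probe set, above the line) and mean values of 8 gene lists, each minus its saline mean, in the 9 arrays (columns: saline, MPH 1 mg/kg, MPH 10 mg/kg). The column of MPH 10 mg/kg replicate 1 is low for Gad1, Slc32a1, Abat and Pvalb and high for cortical genes (0.91), and the row of dopamine neuron genes is below 0 in all 6 MPH arrays.

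**Figure D4:**
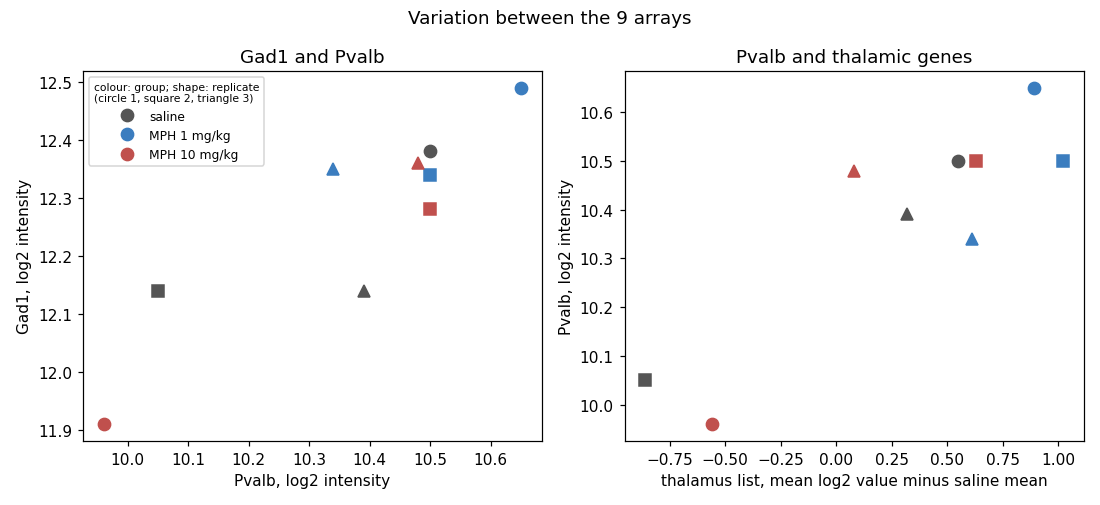
Left, Gad1 against Pvalb in the 9 arrays (r = 0.88), and right, Pvalb against the mean of 6 thalamic genes relative to saline (r = 0.88), all on log2 scales with colours for groups and shapes for replicates. MPH 10 mg/kg replicate 1 and saline replicate 2 hold the low end of both panels.

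The genes most like these were found by Pearson correlation over the 9 arrays among 8462 genes with a mean of at least 6. With the mean of Gad1, Gad2 and Slc32a1 they were Rpl14 (r = 0.97), Gpr89 (0.95), Dpy19l1 (0.95), Rsrp1 (0.94) and Slc6a8 (0.94). With Pvalb they were Prps2 (0.99), Fndc5, Fut9, Nfe2l3 and Hs6st2 (0.98 each). With Abat alone, since Slc6a11 was not measured, they were Dmac2l, Mcat and Adcy7 (0.98 each) and Dnajc4 and Bcl7c (0.97 each). All were picked as the highest of 8462 genes over 9 arrays, so a high r alone does not show a shared biology. The mean of Gad1, Gad2 and Slc32a1 joins genes that agreed poorly (Gad2 with Gad1 at r = 0.29). Of its partners, Gpr89, Rsrp1 and Slc6a8 varied little (SD 0.10 each over the 9 arrays).

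The GABA neuron genes were also set against the dopamine neuron genes of the same arrays. Th, the rate-limiting enzyme of dopamine synthesis, read 10.31, 10.48 and 10.53 in MPH 1 mg/kg arrays and 10.45, 10.63 and 10.51 in MPH 10 mg/kg arrays, against 11.18, 11.13 and 10.99 in saline arrays. It differed from saline by -0.61 over both MPH groups (SE 0.08, limma adjusted p = 0.185, 0.0222 without the block). Th minus Gad1, taken within each array and centred on the saline mean, was -1.07, -0.73 and -0.70 in MPH 1 mg/kg arrays and -0.33, -0.53 and -0.73 in MPH 10 mg/kg arrays, against -0.08, 0.11 and -0.03 in saline arrays. All 6 MPH arrays lay below the 3 saline arrays, and the difference over both MPH groups was -0.68, with an exact two-sided permutation p of 0.0238, the smallest possible, and 0.257 after adjustment over the 18 tests of this family (6 pairs of genes in 3 comparisons). For Slc6a3, the dopamine transporter, minus Gad1 it was -0.32 (exact permutation p = 0.0476, adjusted 0.257). With these numbers of arrays no outcome of the family could have reached 0.05 after adjustment, so the adjusted values decide nothing. Pvalb minus Gad1 differed by 0.02 (exact permutation p = 0.81), Slc32a1 minus Gad1 by -0.24 (exact permutation p = 0.19) and Abat minus Gad1 by -0.19 (exact permutation p = 0.0952). The lower Th of these arrays was known when the pairs were chosen, so the differences that involve Th and Slc6a3 are no independent evidence.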

How the data were processed

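The authors deposited log2 intensities of 9 Affymetrix HT MG-430 PM arrays of substantia nigra RNA, made with Robust Multichip Average (background correction, quantile normalization, summary per probe set). The methods also name ComBat for the 3 replicates, and whether the log2 values had passed through it is not stated. If they had, the replicate block and the ComBat alternative used here correct for the replicate number again. Without the block the values gave 54 probe sets for MPH 1 mg/kg and 115 for MPH 10 mg/kg against saline. These are the numbers the paper lists for 10 and 1 mg/kg, and its methods put ComBat before the linear model. ComBat run here gave 3152 and 2738, so the paper's counts came from the values without a further correction. No version is given in the sources used here. Of 45141 probe sets, 104 controls were left out. Genes were named from the platform annotation, where 28898 probe sets name 1 gene. The brightest probe set stands for a gene.

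A limma model (version 3.58.1, R 4.3.3, with eBayes) covered all 45037 probe sets, with terms for the 3 groups and for the replicate number as a block, since a batch of replicates is described in the methods. P-values were adjusted by Benjamini-Hochberg at 0.05. Deviations of arrays with the same number were negatively correlated (-0.132 to -0.626). Single values also had exact two-sided permutation tests. List scores are means of log2 values minus the saline mean. The fit was tested on simulated data. The members and lists were chosen with earlier results of these data known. All member probe sets are reported, with genes from those lists named in advance by role, and others said to be singled out. Alternatives were no block, ComBat written from its formula without the block, a second quantile normalization, median centring, the brighter probe sets only, an intensity trend with robust fitting, averaged probe sets of a gene, and each array left out. The number of arrays limits the precision.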

Additional observations from a re-analysis of the deposited data

How the results depend on the processing

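None of the 8 member probe sets passed the test in any comparison under any alternative, and 300 of 320 alternative values of the 5 genes kept their direction. The other 20 had main values of at most 0.303 in size. Many of the 320 could not change direction. Dropping the block, keeping only the brighter probe sets or fitting an intensity trend leaves the log2 fold change as it was. So does leaving out an array of a group not compared, or averaging for Gad2 and Pvalb, which have 1 probe set each. Pvalb in MPH 10 mg/kg against saline was -0.014 after median centring, and Gad1 in that comparison 0.0093 as the mean of its probe sets. Leaving out each array in turn gave, against saline, -0.28 to 0.28 for Slc32a1 in MPH 1 mg/kg, and in MPH 10 mg/kg -0.16 to 0.17 for Gad1, -0.11 to 0.24 for Gad2, -0.55 to 0.0048 for Slc32a1 and -0.18 to 0.26 for Pvalb. In both MPH groups it gave -0.0046 to 0.19 for Gad1, -0.42 to 0.14 for Slc32a1 and -0.089 to 0.23 for Pvalb. Between 10 and 1 mg/kg it gave -0.47 to 0.030 for Slc32a1, -0.082 to 0.056 for Abat and -0.34 to 0.080 for Pvalb. The cause was not tested.

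Over all probe sets, 0 passed with the replicate block, and without the replicate block 54, 115 and 207 passed in MPH 1 mg/kg, MPH 10 mg/kg and both groups against saline. After ComBat without the block 3152, 2738 and 3934 passed, and 716 between the doses, a fit in which the batch correction is not counted in the degrees of freedom. With an intensity trend and robust fitting 2, 1 and 3 passed. Leaving out single arrays gave 0 to 1 in each comparison with saline (1 without saline replicate 2 in all 3, and 1 without saline replicate 1 in both MPH groups) and 0 between the doses. Without the block, adjusted p of the members ranged over 0.242 to 0.999 and changed no call. No intensities before normalization were used here, so another background correction was not run.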
